A study of Elaeis guineensis with 9 samples.

Results

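Leaf transcript levels of 2 oil palm populations, Deli x Yangambi and Deli x LaMe, were compared in 6 of the 9 libraries of the series. The 6 were the 3 Yangambi and 3 LaMe libraries, paired by yield class, and 30576 of the 51490 transcript rows of the deposited table were tested, namely those with at least 1 TPM in 3 or more of the 9 libraries. TPM is a unit of abundance that corrects read numbers for the length of the transcript and has the same total in every library. All palms were Elaeis guineensis of the Tenera cultivar, grown in a common field and 7 years old, and the leaf tissue came from frond 17. Each population had 1 library of low, 1 of medium and 1 of high oil yield, so the replicates of a population also differ in yield class, and both populations have Deli as a parent. The remaining 3 libraries, from Deli x SP540 at the same yield classes, entered the fit only to estimate the spread, and their levels are given side by side with the others. Whether 1 palm or a pool was used for a library is not in the labels, so p-values describe no more than the spread among the libraries at hand.

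Deli is a dura population, with thick-shelled fruit, that serves as the mother in most commercial oil palm crosses. It is crossed with pisifera palms, which lack a shell, from African origins such as La Mé in Ivory Coast and Yangambi in the Congo, and the offspring are tenera palms with thin shells. Palms of such crosses therefore share their Deli side and differ in the origin of the pollen parent. A gene can give several transcripts, which share part of their sequence. The table lists each of these as a row of its own, so a population can differ in the level of a gene or in which of its transcripts is present.

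The leaf libraries were alike in overall content. Between 26390 and 26991 rows reached 1 TPM in the 6 libraries compared, and the tested rows held 99.57 to 99.67% of TPM. The median difference over all tested rows was 0.019 on the log2(TPM + 1) scale, which is used for every difference here and understates changes at low level. CAT2, a catalase that removes hydrogen peroxide from leaf peroxisomes, was measured at 3458 to 6399 TPM in these 6 libraries. BBM, a regulator of embryo formation, was listed at 0 in all 9 libraries. The flower MADS-box genes AG2, AGL2-2, AGL2-3, AGL2-5, GLO1, GLO2 and SQUA1 stayed under 1 TPM in every library, with 0.735 TPM of GLO2 as the highest value. DEF1, another MADS-box gene, was measured at 1.08 to 5.69 TPM.

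Of the 30576 rows, 117 passed the limma test at an adjusted p of 0.05 and are said to be called (0.383%). There were 62 rows higher in Yangambi (0.203% of those tested) and 55 lower (0.18%). The called differences ranged in size from 0.80 to 5.85, with a median of 2.689 for higher and -2.643 for lower rows, against a median size of 0.308 over all tested rows. Called rows were mostly of moderate abundance. Their level in the higher population had a median of 25.5 TPM, with 16 rows at 100 TPM or more, 79 between 10 and 100 TPM and 22 under 10 TPM. The lower population averaged under 1 TPM for 49 of them, 24 higher and 25 lower in Yangambi. In bulk leaf, fewer cells of a type and less RNA per cell cannot be told apart.

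**Figure D1:**
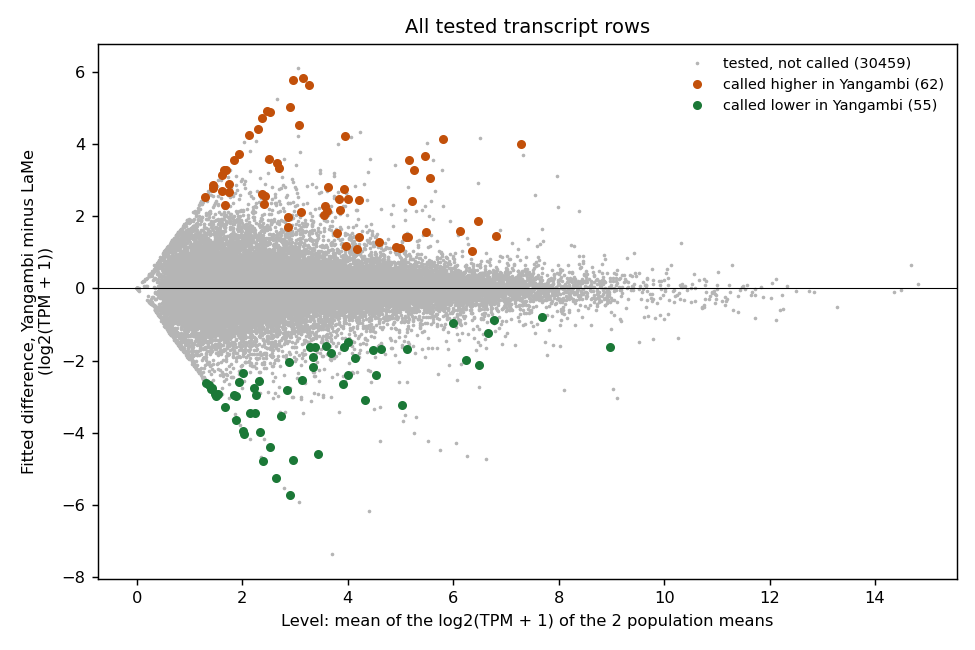
Fitted difference between Deli x Yangambi and Deli x LaMe (y axis, log2(TPM + 1)) against level (x axis, log2(TPM + 1)), 1 point per tested transcript row. The 62 rows called higher and the 55 called lower lie at low and middle levels, from 0.80 to 5.85 in size. Some rows that were not called lie further out, and the rows of highest level lie near 0.

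Together the called rows held 0.33 to 0.395% of TPM in the LaMe libraries and 0.421 to 0.436% in the Yangambi libraries. The rows called higher in Yangambi summed to 538.9, 550.1 and 552.6 TPM in the LaMe libraries and to 3354, 3367 and 3588 TPM in the Yangambi libraries. The rows called lower summed to 2748, 2853 and 3398 TPM in LaMe and to 776.6, 860.5 and 936.0 TPM in Yangambi. These sums follow from the choice of the rows and are given as a description. In SP540 the first set summed to 2959 to 3026 TPM and the second to 1420 to 1769 TPM. An unadjusted p under 0.05 was found for 4205 rows or 13.8%, called rows included, where 1529 would be expected by chance. The 95% interval of a difference extended by a median of 0.81 on each side. The number called was 20 to 64 when 1 of the 6 libraries compared was left out, lowest without the high-yield LaMe library, and 33 when only those 6 libraries were fitted. Without the low, medium or high yield class it was 16, 1 and 7.

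**Figure D2:**
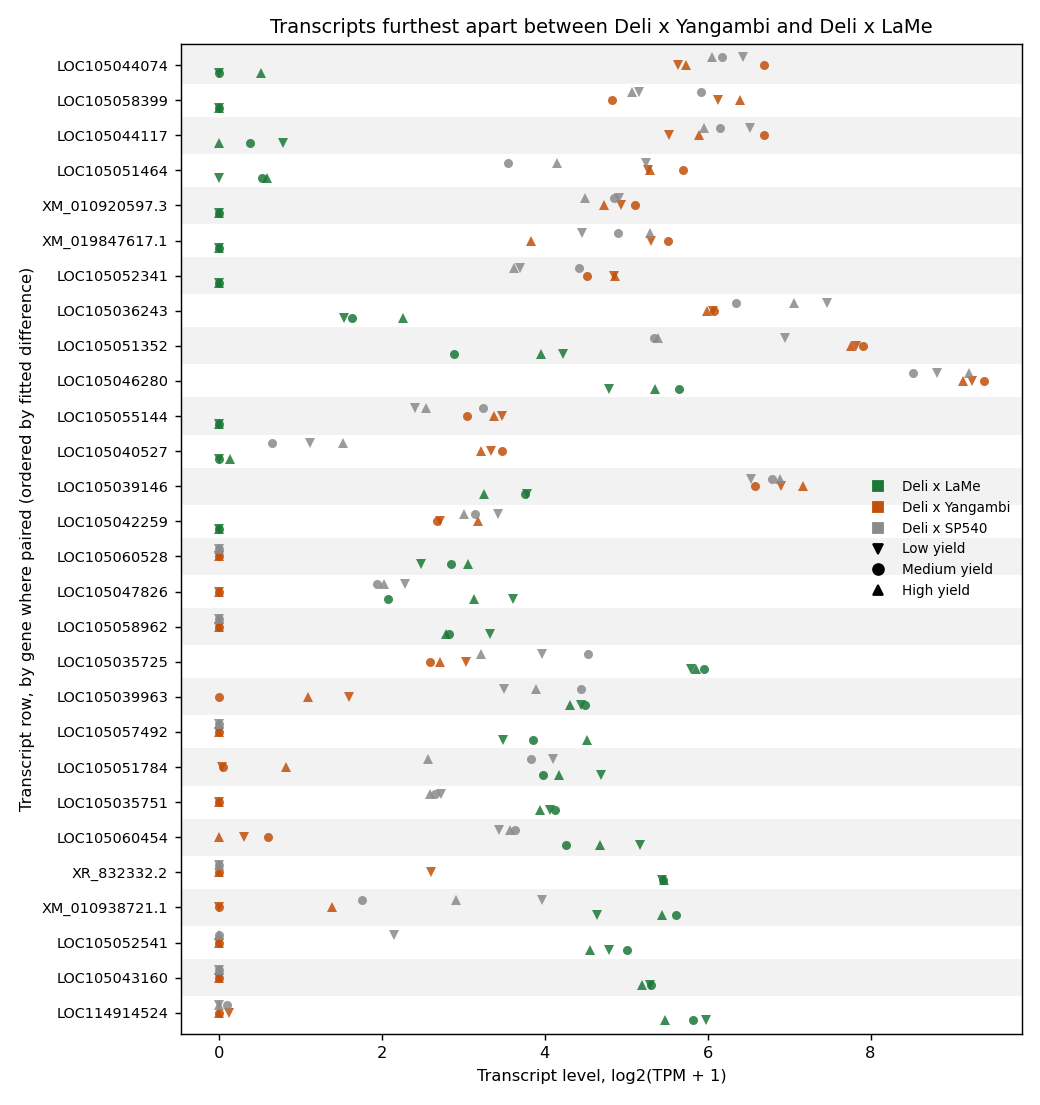
Level of 28 called transcript rows (x axis, log2(TPM + 1)) in each of the 9 libraries, ordered by fitted difference (y axis). Colours mark the population and symbols the yield class. The rows were chosen so that the 3 Yangambi and 3 LaMe points do not overlap, and several rows are at 0 in all libraries of a population.

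The largest difference among called rows belonged to LOC105044074. It was listed at 0, 0 and 0.431 TPM in the low-, medium- and high-yield LaMe libraries and was at 48.8, 102 and 52.3 TPM in the Yangambi libraries. The SP540 libraries had 85.1, 71.2 and 65.2 TPM. The gene was therefore at or near 0 in LaMe alone, and the difference of Yangambi from LaMe was 5.85 (SE 0.309, limma adjusted p = 0.00169). LOC105044117, the next gene with a tested row in the gene order of the RefSeq table, had 0.717, 0.303 and 0 TPM in LaMe and 45.0, 102 and 58.5 TPM in Yangambi. The medium-yield Yangambi library was the highest of the 3 for both genes, and the difference of the second was 5.65 (SE 0.313, adjusted p = 0.00169). LOC105058399 was listed at 0 in all 3 LaMe libraries and was at 68.6, 27.4 and 82.9 TPM in Yangambi, with the medium-yield library lowest here.

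LOC105051464 had at most 0.504 TPM in LaMe and 37.4, 50.7 and 38.0 TPM in Yangambi, a difference of 5.04 (SE 0.437, limma adjusted p = 0.0103). LOC105052341 was listed at 0 in the LaMe libraries and had 27.9, 21.8 and 28.01 TPM in the Yangambi libraries. Its Yangambi mean was 25.9 ± 3.57 TPM (SD, n = 3), so the libraries lay close together. LOC105042259, and the row XM_029267611.1 of LOC105055144, were also listed at 0 in the 3 LaMe libraries, with 6.33 ± 1.49 and 8.90 ± 1.48 TPM in Yangambi. Their calls held in 9 and 11 of 22 alternative settings. The other tested row of LOC105055144 had 16.90 to 22.56 TPM in LaMe, and the gene's summed level differed by 0.221 (SE 0.146, adjusted p = 0.529). Of LOC105040527, the row XM_019849537.2 was low in SP540 as well as in LaMe. It was at 9.11, 10.1 and 8.27 TPM in Yangambi, against at most 0.0908 TPM in LaMe, and SP540 had 0.569 to 1.87 TPM. Other rows of this gene were present in LaMe, its summed level differed by 0.856 and was not called (SE 0.192, adjusted p = 0.114), and the row's call held in 9 of 22 alternative settings. LOC105036243 was not absent in LaMe, where it had 1.90, 2.09 and 3.76 TPM against 65.8, 66.4 and 62.7 TPM in Yangambi (difference 4.24, SE 0.274, adjusted p = 0.00265). SP540 had the highest level of this gene, at 80.2 to 176 TPM. Its row is a non-coding model of a gene that the RefSeq table lists as protein-coding.

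Among rows called lower in Yangambi, LOC114914524 was first, a gene for a long non-coding RNA. It had 62.2, 55.6 and 43.6 TPM in the low-, medium- and high-yield LaMe libraries and 0.0833, 0 and 0 TPM in Yangambi, and at most 0.0661 TPM in SP540. This transcript was thus measured in LaMe and at or near 0 in the other 6 libraries (Yangambi minus LaMe -5.72, SE 0.291, limma adjusted p = 0.00144). LOC105043160 had 38.0, 38.4 and 35.6 TPM in LaMe, 1.68e-07 TPM in the low-yield Yangambi library and 0 in the other 5 libraries. It was the steadiest of the leading rows, with differences of -5.29, -5.30 and -5.19 in the 3 yield classes. LOC105057492, in its row XM_010940119.2, and LOC105060528 were likewise listed at 0 in all Yangambi and SP540 libraries, with LaMe means of 15.2 ± 5.94 and 6.05 ± 1.38 TPM. Their calls held in 10 of 22 and 7 of 21 alternative settings. As a sum over its rows, LOC105057492 differed by -0.434 and was not called (SE 0.157, limma adjusted p = 0.258).

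Other lower rows were present in SP540. LOC105035751 had 15.7, 16.5 and 14.4 TPM in LaMe, 0 in the 3 Yangambi libraries and 5.62, 5.28 and 4.99 TPM in SP540. LaMe, SP540 and Yangambi did not overlap in this gene, and the difference of Yangambi from LaMe was -4.05 (SE 0.257, limma adjusted p = 0.00225). LOC105060454 had 35.1, 18.1 and 24.5 TPM in LaMe, at most 0.508 TPM in Yangambi, while SP540 had 9.83 to 11.4 TPM. LOC105052541 had 22.5 to 31.3 TPM in LaMe and 0 in Yangambi, and in SP540 it was measured only in the low-yield library, at 3.44 TPM, with a call in 11 of 22 alternative settings. LOC105047826, in row XM_010926931.3, ranged from 3.22 to 11.2 TPM in LaMe and from 2.82 to 3.88 TPM in SP540, and was at most 2.59e-06 TPM in Yangambi. The call of this row held in 5 of 21 alternative settings, and the gene's summed level was not called (-0.60, SE 0.286, adjusted p = 0.383). LOC105035725 differed without being absent. It had 54.7, 61.1 and 57.1 TPM in LaMe and 7.20, 5.02 and 5.53 TPM in Yangambi, a difference of -3.09 (SE 0.286, adjusted p = 0.0117), with 8.29 to 22.1 TPM in SP540.

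Of the 117 called rows, 51 could not be paired with a gene of the RefSeq table by accession. The lowest adjusted p of any row belonged to one of these, XM_010920597.3 (limma adjusted p = 0.000991). It was listed at 0 in the 3 LaMe libraries, at 29.5, 33.6 and 25.5 TPM in Yangambi and at 21.5 to 29.1 TPM in SP540. XM_019847617.1 was also listed at 0 in LaMe and ranged more widely in Yangambi, with 38.6, 44.7 and 13.2 TPM. In the other direction, XM_010938721.1 had 23.9, 47.9 and 42.4 TPM in LaMe and was listed at 0, 0 and 1.62 TPM in Yangambi, with a call in 7 of 22 alternative settings. XR_832332.2, a non-coding model, had 42.5, 42.8 and 43.2 TPM in LaMe and 5.05, 0 and 1.59e-06 TPM in Yangambi, so that its difference rests most on the medium- and high-yield pairs. Its adjusted p was 0.0406, and the call held in 7 of 22 alternative settings.

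Non-coding models made up 13 of the 117 called rows or 11.1%, and 11.6% of the rows tested, so they were called at about the rate of all rows (0.366% of the non-coding models tested, against 0.383%). XR_003800592.1 had 0.325, 1.39 and 0.619 TPM in LaMe and 41.4, 38.5 and 36.9 TPM in Yangambi (difference 4.53, SE 0.211, limma adjusted p = 0.00114). LOC105042990, a long non-coding RNA gene, was at 0.896 to 1.43 TPM in LaMe and 11.4 to 12.8 TPM in Yangambi. These rows had not been chosen by the rule for named rows and were picked after their values were seen.

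The called rows of highest level differed widely in size of difference. Among the 12 with the highest mean, sizes ran from 0.80 to 4.14. LOC105051352 and LOC105046280, described below by transcript, had differences of 4.14 and 3.99. XM_010918967.3, not paired with a gene, had 9.35 to 12.8 TPM in LaMe and 131 to 183 TPM in Yangambi, a difference of 3.68. XM_019851476.2, not paired with a gene, was at 1129, 690 and 808 TPM in LaMe, 370, 212 and 277 TPM in Yangambi, while SP540 had 499 to 718 TPM. Yangambi and LaMe did not overlap and their difference was -1.61. LOC105034635 had 245 to 284 TPM in LaMe and 147 to 163 TPM in Yangambi, and its difference of -0.80 was the smallest among called rows. LOC105058492 had 55.7 to 74.4 TPM in LaMe and 61.1 to 87.9 TPM in SP540, and was higher in Yangambi with 154 to 218 TPM. Of the 20 tested rows with the highest mean level in the 6 libraries, 0 were called by limma, against 0.383% of all tested rows, a count too small to read against that share. Their lowest adjusted p was 0.0688, and 8 did not overlap between the populations, against 21.0% of all tested rows. The nearest to the threshold was LOC105041860, which had 4669, 4622 and 4186 TPM in LaMe and 2223, 2636 and 2745 TPM in Yangambi, a difference of -0.83 (SE 0.135). These rows were listed by abundance, after the values were seen.

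Of the 63 genes with a called row, 42 had a single tested row and 21 had several. In the latter, 14 genes also had a tested row of the opposite sign, while 65.3% of all genes with several tested rows had rows of both signs. The clearest case by level was LOC105046280. Its row XM_010924833.3 had 26.69, 49.15 and 39.99 TPM in LaMe and 608.8, 672.7 and 560.2 TPM in Yangambi. Its other row, XM_010924832.3, ran the other way, from 750.3, 740.3 and 683.5 TPM in LaMe to 92.04, 101.9 and 111.7 TPM in Yangambi. The first row was higher in Yangambi by 3.99 (SE 0.241, limma adjusted p = 0.00212), and the second differed by -2.82 without passing the test (SE 0.466, adjusted p = 0.072). The gene's summed level differed by -0.094 (SE 0.134, adjusted p = 0.794). In the SP540 libraries the second row held 17.8, 54.7 and 13.4% of the gene's TPM, so the medium-yield library lay between the 2 populations.

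**Figure D3:**
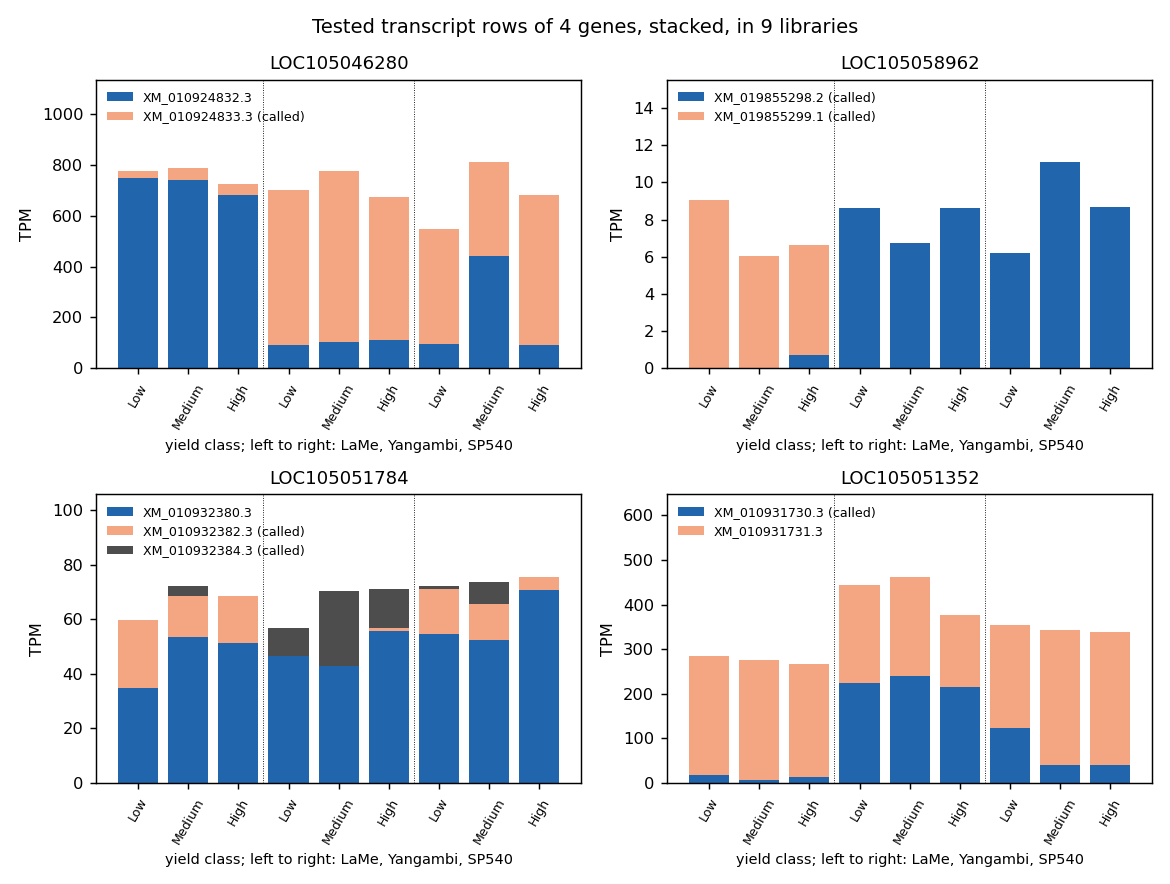
Stacked TPM (y axis) of the tested transcript rows of 4 genes in the 9 libraries (x axis, by yield class within LaMe, Yangambi and SP540). In LOC105046280 and LOC105058962 the leading row differs between all LaMe and all Yangambi libraries while the height of the stack is similar.

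LOC105058962 had both of its tested rows called, in opposite directions. XM_019855299.1 had 9.042, 6.065 and 5.871 TPM in LaMe and was listed at 0 in the 3 Yangambi and 3 SP540 libraries (-2.98, SE 0.336, limma adjusted p = 0.0257). XM_019855298.2 was listed at 0, 0 and 0.7416 TPM in LaMe and had 8.616, 6.747 and 8.650 TPM in Yangambi (2.90, SE 0.337, adjusted p = 0.0285). The summed level of the gene differed by 0.138 (SE 0.266, adjusted p = 0.854). In LOC105051784, XM_010932382.3 had 24.87, 14.81 and 17.07 TPM in LaMe against at most 0.7653 TPM in Yangambi, and XM_010932384.3 had 2.64e-05, 3.84 and 5.87e-05 TPM in LaMe against 10.53, 27.80 and 14.33 TPM in Yangambi. The remaining tested row of this gene, XM_010932380.3, was the most abundant and did not pass the test, with 34.89 to 53.65 TPM in LaMe and 42.71 to 55.87 TPM in Yangambi (0.07, SE 0.165, adjusted p = 0.90). The calls of LOC105058962 and LOC105051784 held in 4 to 8 of 22 alternative settings for each row, and all 4 rows have a mean under 20 TPM. LOC105039963, by contrast, had its 2 called rows both lower in Yangambi. Their levels were 18.79 to 21.61 and 7.737 to 10.78 TPM in LaMe against at most 2.007 and 1.017 TPM in Yangambi. The calls of these rows held in 8 and 10 of 22 alternative settings. The sum was lower too (-3.70, SE 0.227, adjusted p = 0.00158).

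In LOC105051352 a single row was called. XM_010931730.3 had 17.74, 6.380 and 14.51 TPM in LaMe and 224.9, 240.3 and 215.7 TPM in Yangambi, a difference of 4.14 (SE 0.366, limma adjusted p = 0.0103). The other row, XM_010931731.3, had 253.1 to 268.8 TPM in LaMe and 160.2 to 221.6 TPM in Yangambi (-0.41, SE 0.162, adjusted p = 0.333). SP540 had 122.7, 39.51 and 40.86 TPM of the first row. The gene's summed level was higher in Yangambi by 0.624 and was not called (SE 0.108, adjusted p = 0.0616). In LOC105039146 the called row XM_010915167.3 had 8.527 to 12.71 TPM in LaMe and 95.06 to 142.6 TPM in Yangambi, while XM_010915166.3 had 304.7 to 335.1 and 183.0 to 235.5 TPM and did not pass (-0.61, SE 0.109, adjusted p = 0.079). The summed level differed by 0.063 (SE 0.105). LOC105058589 had 39.05 to 49.71 TPM of XM_010941555.3 in LaMe, 115.9 to 237.5 TPM of it in Yangambi and a higher 263.1 to 308.8 TPM in SP540, and its second row was at 149.6 to 179.7, 1.795 to 80.15 and 1.642 to 3.305 TPM in the same order.

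The transcript with the largest share of a gene's TPM was then compared in every library. It was examined in 2942 genes with several tested rows and at least 5 TPM in each of the 6 libraries. In 28 of these, or 0.952%, all 3 LaMe libraries had the same leading transcript and all 3 Yangambi libraries had another. Of the 28, 5 had a leading transcript that was called. Any row, leading or not, was called in 21 of all 3716 genes with several tested rows, so the 2 counts are unlike. Leading transcripts were compared on the same levels, so nothing is read from these counts. The summed level was called in 0 of 28, against 89 of the 15230 genes with a tested row, a count too small to read against that share. The shares were furthest apart in LOC105058962, where the transcript leading in LaMe held 88.8 to 100% there and 0% in Yangambi, and in LOC105046280, with 93.8 to 96.6% against 13.1 to 16.6%. Only these 2 genes had shares at least 50 percentage points apart in every cross-population pair of libraries for both transcripts. No test was run on shares. When rows were summed to genes, 6 of the 21 genes with several tested rows kept a call, as did 42 of 42 genes with a single row. For a gene with a single tested row the sum is largely that row, so its call was bound to stay. The counts are therefore not compared.

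Some rows were listed at 0 in all 3 libraries of a population and at 1 TPM or more in all 3 of the other. There were 80 such rows measured in Yangambi and at 0 in LaMe, and 92 measured in LaMe and at 0 in Yangambi. In SP540, 9 of the 80 and 11 of the 92 were at 0 in all 3 libraries, and 21 and 8 were at 1 TPM or more in all 3. The rows were low in level, with a median of 3.18 and 3.35 TPM in the population that had them. Non-coding models were 20 of the 80 and 22 of the 92, against 11.6% of all tested rows, whatever their level. No share among rows of like level was taken and no test was run, so nothing is read from this. Of the 80 and the 92, 11 and 7 were called, against 0.383% of all tested rows, but they were chosen by the same difference and nothing is read from these counts. The most abundant row in each direction was not called, and both varied within SP540. LOC105053547 had 198, 134 and 171 TPM in LaMe and 0 in the 3 Yangambi libraries, and in SP540 it had 1168.22 and 902.523 TPM at low and medium yield and 0 at high yield (-7.38, SE 2.07, limma adjusted p = 0.21). LOC105050303, in row XM_029266155.1, was listed at 0 in LaMe and had 74.7, 68.9 and 60.7 TPM in Yangambi, with 30.1, 57.2 and 0.0867 TPM in SP540 (6.11, SE 1.09, adjusted p = 0.0825). LOC105051620 was listed at 0 in LaMe, had 45.6, 26.6 and 42.9 TPM in Yangambi and was measured in the low-yield SP540 library only, at 35.1 TPM. The spread within SP540 is part of the SE of these rows, since all 9 libraries were fitted. They were picked by level after the values were seen. The depth of the libraries is unknown, so a row listed at 0 may lie below what was detectable.

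Each yield class gave a separate pair of libraries. A difference of 1 or more was seen in 7065 rows or 23.1% at low yield, 6219 or 20.3% at medium yield and 6965 or 22.8% at high yield. It was seen in all 3 pairs with the same direction in 426 rows higher and 397 rows lower in Yangambi. Of the 117 called rows, 110 passed 1 in all 3 pairs. All 117 had the same sign in the 3 pairs and did not overlap, which follows largely from the call. The gap between the largest and smallest of a called row's 3 differences had a median of 0.725 and reached 1 or more in 42 rows.

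**Figure D4:**
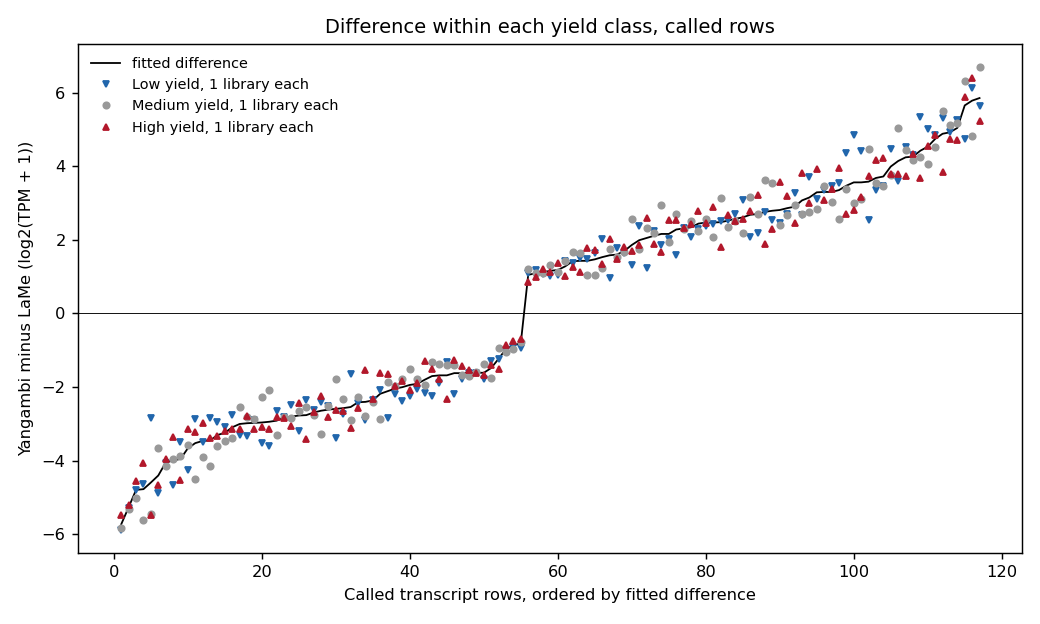
Difference between the Yangambi and the LaMe library of each yield class (y axis, log2(TPM + 1)) for the 117 called rows, ordered by the fitted difference (x axis, line). The symbols are single pairs of libraries, and those of a row lie on the same side of 0.

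The largest gap, 2.62, belonged to XR_832332.2, with -2.85 at low yield and -5.45 and -5.46 at medium and high yield. XM_010942449.3 was next, with 2.55, 13.1 and 15.5 TPM in LaMe against 102, 113 and 116 TPM in Yangambi, so that its spread lay in the LaMe libraries. The steadiest rows were XM_010940093.3, with differences of -2.82, -2.82 and -2.83, and LOC105060886, with -1.61, -1.59 and -1.62. The latter had 16.0, 17.6 and 25.9 TPM in LaMe and 4.59, 5.16 and 7.75 TPM in Yangambi, so that both populations were highest at high yield. The last 3 of these rows were picked by their range over yield classes. With 1 library per combination, a difference between yield classes could not be tested.

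Called genes that lie next to each other were counted in the gene order of the RefSeq table, over genes with a tested row. Both genes were called in 3 of 15164 neighbouring pairs, and 0.414% of the tested genes had a called row. The first pair was LOC105044074 and LOC105044117, both described above. In the second, LOC105036773 had 13.0, 12.4 and 17.9 TPM in LaMe and 36.7, 35.0 and 36.9 TPM in Yangambi, and its neighbour LOC105036243 was higher too. SP540 was above both populations for LOC105036773 as well, at 85.7 to 119 TPM. The third pair was lower in Yangambi. LOC105039511 had 37.1, 33.0 and 28.7 TPM in LaMe and 7.12, 11.0 and 6.01 TPM in Yangambi, and LOC105039519 had 20.6, 17.4 and 11.1 against 5.26, 4.81 and 3.49 TPM. The SP540 libraries had 28.3 to 34.1 TPM of the former and 4.68 to 7.17 TPM of the latter, so the 2 genes did not move together across all populations. The order comes from assembly EG11, which may not be the one behind the deposited table, and the pairs were not tested.

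Genes with a name were examined by role. Of 42 listed genes, 31 had a row and 21 were tested, in 25 rows, 9 higher and 16 lower in Yangambi, with a median difference of -0.20. None was called by limma, against 0.383% of all rows, and 3 of the 25 rows had an unadjusted p under 0.05, against 13.8% of all rows, so that neither count is a result about these genes. The curated transcript models, 25 of those tested, overlapped with this list. Of these, 0 were called and 4 had an unadjusted p under 0.05, against the same shares of all rows, and the lowest adjusted p was 0.135.

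**Figure D5:**
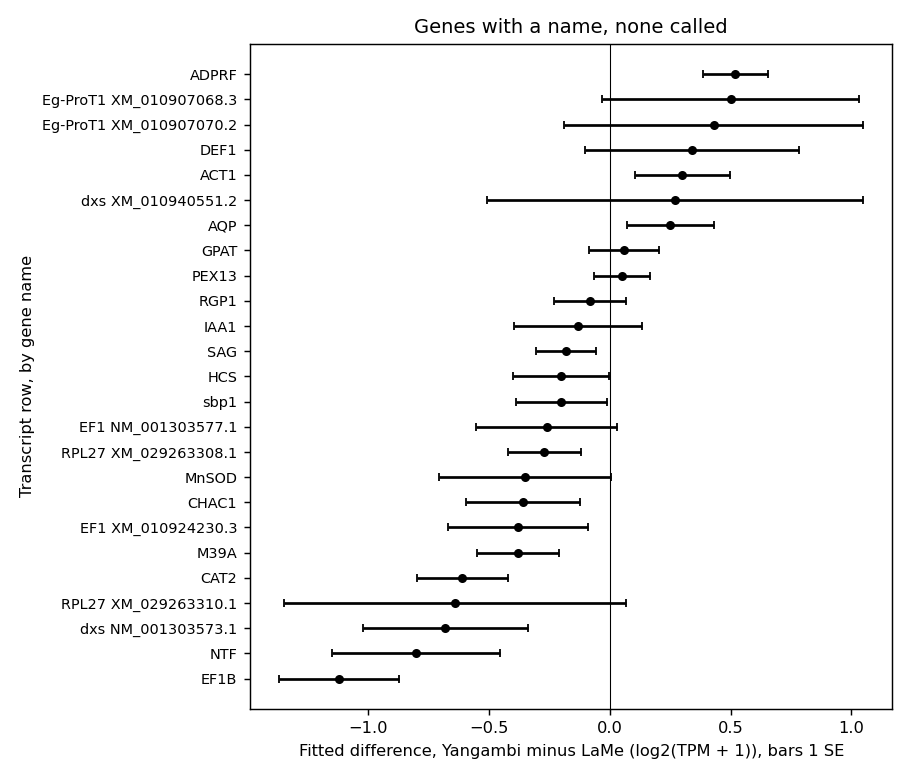
Fitted difference of 25 transcript rows of genes with a name (x axis, log2(TPM + 1), Yangambi minus LaMe, bars 1 SE), ordered by size (y axis). The rows run from -1.12 for EF1B to 0.52 for ADPRF, and no row was called.

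In translation, EF1B, a translation elongation factor gene, had 854, 760 and 628 TPM in LaMe and 267, 382 and 385 TPM in Yangambi. The populations did not overlap, with a difference of -1.12 (SE 0.247, limma adjusted p = 0.135). EF1 had 390 to 692 TPM in LaMe and 373 to 522 TPM in Yangambi in its curated row (-0.26, SE 0.291). The main row of the ribosomal protein gene RPL27 had 133 to 149 TPM in LaMe and 105 to 126 TPM in Yangambi (-0.27, SE 0.152).

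In redox metabolism, CAT2 had 5738, 5206 and 6399 TPM in LaMe and 3458, 4204 and 3693 TPM in Yangambi. It was lower in each yield class without overlap, by -0.61 (SE 0.188, limma adjusted p = 0.241), and ranged from 4469 to 7189 TPM in SP540. MnSOD, a superoxide dismutase, had 104 to 209 TPM in LaMe and 76.1 to 172 TPM in Yangambi (-0.35, SE 0.356). ADPRF, an ADP-ribosylation factor of the kind that acts in vesicle traffic, had 112, 135 and 103 TPM in LaMe and 165, 173 and 165 TPM in Yangambi (0.52, SE 0.133, adjusted p = 0.176). SP540 had 155 to 175 TPM of it.

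In lipid and isoprenoid metabolism, GPAT, an acyltransferase of glycerolipid assembly, had 126, 121 and 97.0 TPM in LaMe and 103, 124 and 130 TPM in Yangambi. Its difference was 0.06 (SE 0.146), within the spread of either population. The curated row of dxs, the first enzyme of the plastid isoprenoid pathway, had 1.54 to 2.87 TPM in LaMe and 0.928 to 1.02 TPM in Yangambi (-0.68, SE 0.342, limma adjusted p = 0.446). A second dxs row was more abundant and had no common direction, with 0.0547, 6.02 and 12.1 TPM in LaMe and 4.84, 8.85 and 1.95 TPM in Yangambi. The aquaporin gene AQP, a water channel, had 472 to 645 TPM in LaMe and 559 to 717 TPM in Yangambi (0.25, SE 0.180). The auxin response gene IAA1 and the actin gene ACT1 differed by -0.13 (SE 0.265) and 0.30 (SE 0.197).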

How the data were processed

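RNA sequencing of leaf gave 9 libraries, grouped by the population and yield class in the labels. The deposited table holds TPM values per RefSeq transcript row, although its name says counts. The submitters' processing notes name fastp, kallisto and DESeq2 without versions or roles, and for the build and transcript set the sources used here give no name. kallisto estimates how reads shared by several transcripts are divided, so values of transcripts of the same gene and of near-identical copies are uncertain, and TPM keeps no depth. The authors' TPM values were taken as deposited.

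Rows were joined by accession without version to the RefSeq EG11 gene table (31716 rows or 61.6%, of which 1009 with the same version), used only for names and gene order. log2(TPM + 1) was fitted with limma 3.58.1 (R 4.3.3, statmod 1.5.0) to all 9 libraries, with terms for population and for yield class, a trended and robust prior variance, 4 residual and 3.01 to 3.1 prior degrees of freedom, and Benjamini-Hochberg adjustment over 30576 rows, at a threshold of 0.05. Yield class pairs the populations. The fit was run on simulated data with normal noise and no lower limit on level. That differs from rows absent in a population, so the simulation is no check for such rows. Batches are not given in the labels, so a batch and a population cannot be told apart.

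Named rows were called rows with a mean of at least 5 TPM in the higher population and no overlap: the 12 largest differences in each direction with a gene, at most 2 without a gene in each direction, genes with a name, and genes with 2 or more called rows. Rows named beyond this are said to be picked later. The comparison, the lists and the rule were chosen with earlier results of these data known. Lists defined by protein motifs, the leaf and seed markers among them, and transcript sequences were not used here. The alternatives tried were other pseudocounts, filters, scalings, prior variances, gene sums, the yield class term and left-out libraries.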

Additional observations from a re-analysis of the deposited data

Results flagged for a closer look

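The second row of dxs, XM_010940551.2, differed in opposite directions in 2 yield classes. Yangambi minus LaMe was 2.47 at low yield, where LaMe had 0.0547 TPM and Yangambi 4.84 TPM, and -2.15 at high yield, where LaMe had 12.1 TPM and Yangambi 1.95 TPM. At medium yield it was 0.49, and the curated dxs row was lower in Yangambi in all 3 classes. With 1 library on each side this difference between yield classes was not tested.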

How the results depend on the processing

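The number of called rows, 117, was 70 with a pseudocount of 0.1, 46 with no filter on level, 176 features with rows summed to genes, 33 with only the 6 libraries compared and 389 with no yield class term. It was 139 with a pseudocount of 5, 140 with at least 5 TPM in 3 libraries, 109 with quantile normalization, 134 with median centring and 122 with a plain prior variance. With 1 library or 1 yield class left out it ranged from 1 to 77. Of the 117 rows, 63 remained called with a pseudocount of 0.1, 46 with no filter, 20 with only the 6 libraries, 106 with quantile normalization, 114 with median centring and 1 without the medium yield class. Median centring moved the median difference from 0.019 to -0.034 and the share of higher calls from 53.0 to 47.8%. Summing to genes turned the direction of LOC105046280 to -0.094, of LOC105058962 (row XM_019855299.1) to 0.138 and of LOC105051784 (row XM_010932384.3) to -0.017, because rows of opposite direction were added. For other changes the cause was not tested. Yield class is the pairing in the fit, since the labels give no replicate numbers. TPM keeps no depth, so what depth limits cannot be stated.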

Other observations

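The test over 25145 sums, in which rows without a gene stood alone, gave calls that the test over 30576 transcript rows did not. Of 89 genes called as sums, 41 had no called row, and 35 of these had a single tested row, whose adjusted p lay between 0.0528 and 0.0744 in the limma test over rows. The sum of these 35 genes is largely that row, and the adjustment ran over fewer features. Their calls as sums are therefore no separate result. LOC105036203 had the highest level among the 5 of them with the largest differences, with 101.0, 30.16 and 115.2 TPM in LaMe, 12.89, 10.76 and 9.022 TPM in Yangambi, while SP540 had 8.099 to 14.59 TPM. Its difference was -2.61 (SE 0.377), with a limma adjusted p of 0.042 as a sum and 0.0548 as a row. LOC105040943 had 10.91, 6.013 and 1.618 TPM in LaMe and 45.11, 44.19 and 38.27 TPM in Yangambi, and SP540 lay with LaMe at 5.572 to 6.442 TPM. These genes were picked after their values were seen.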
